A study of Mus musculus with 10 samples.

Results

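Ribosomal proteins Rpl10l, Rpl39l and Rpl22l1 were compared with Rpl10, Rpl39 and Rpl22, the genes they are paralogs of, in round spermatids, the haploid germ cells that follow meiosis. The 6 genes were taken by symbol from 55401 genes in a table that also holds subfamilies of transposable elements (TE), and each symbol matched 1 row. The cells came from adult male mice of the outbred CD1 stock, 5 per group and 1 library per mouse. In the heat group the testes of mice under isoflurane touched water at 42 °C for 30 minutes, and in the control group the water was at 33 °C for the same 30 minutes. Both groups thus shared the anaesthesia, the contact with water and the cell isolation, for which the mice were killed once awake. Per the labels, stranded libraries were made from total RNA after removal of ribosomal RNA, and nothing there says which mice were handled on the same day.

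A cytosolic ribosome carries a single copy of most of its proteins, and most of these are encoded by a single active gene in mammals. Rpl10 and Rpl39 lie on the X chromosome, which is silenced in male meiosis and stays largely repressed in spermatids. Rpl10l and Rpl39l are autosomal copies known to be expressed mainly in the testis, and in mice the loss of Rpl10l blocks male meiosis. RPL10 is the protein that completes the large subunit near its peptidyl transferase centre, and RPL39 lines the peptide exit tunnel. RPL22 binds RNA at the outer face of the large subunit, and RPL22L1, its paralog, is held down by RPL22 in many mouse tissues and is not a testis gene by its general distribution.

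Positions are those of GRCm38 and were equal in the deposited table and in the GENCODE annotation used for lengths. Rpl10l (ENSMUSG00000060499, chromosome 12, 66283379 to 66284401, minus strand) has 1 exon, whereas Rpl10 (ENSMUSG00000008682, chromosome X, 74270812 to 74273135, plus strand) has up to 7 exons in a coding transcript. Rpl39l (ENSMUSG00000039209, chromosome 16, 10170226 to 10174911, plus strand) and Rpl39 (ENSMUSG00000079641, chromosome X, 37082520 to 37085402, minus strand) each have up to 3. Rpl22l1 (ENSMUSG00000039221, chromosome 3, 28805436 to 28807424, plus strand) and Rpl22 (ENSMUSG00000028936, chromosome 4, 152325742 to 152334071, plus strand) each have up to 4.

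Whether reads of a pair can be told apart depends on the whole transcripts, of which the coding sequences are a part. The coding sequences of both X-linked pairs are shown, from the GENCODE M21 transcripts of GRCm38, 5′ to 3′ from the start codon. Bases that differ between the 2 genes of a pair are in capitals. For Rpl39l (chr16:10174310-10174465, plus strand) and Rpl39 (chrX:37082701-37085127, minus strand, introns left out) the whole coding sequence of 156 bases is given, and for Rpl10l (chr12:66283713-66284357, minus strand) and Rpl10 (chrX:74271002-74273067, plus strand, introns left out) the first 120 of 645 bases, where the coordinates span the whole coding sequence.
Rpl39l: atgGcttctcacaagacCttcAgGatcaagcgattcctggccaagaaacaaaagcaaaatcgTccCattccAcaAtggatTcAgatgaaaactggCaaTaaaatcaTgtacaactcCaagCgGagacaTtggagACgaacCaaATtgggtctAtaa
Rpl39: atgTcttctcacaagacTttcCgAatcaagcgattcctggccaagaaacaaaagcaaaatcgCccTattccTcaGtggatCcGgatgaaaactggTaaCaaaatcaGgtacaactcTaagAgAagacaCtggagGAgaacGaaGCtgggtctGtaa
Rpl10l: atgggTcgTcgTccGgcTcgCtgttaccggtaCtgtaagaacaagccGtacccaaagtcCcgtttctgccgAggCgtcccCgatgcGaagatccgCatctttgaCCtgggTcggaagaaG
Rpl10: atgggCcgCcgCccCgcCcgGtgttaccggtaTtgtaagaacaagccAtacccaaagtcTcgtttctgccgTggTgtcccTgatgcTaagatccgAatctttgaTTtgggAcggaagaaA

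Rpl39l and Rpl39 differed at 23 of 156 coding bases, an identity of 85.3%, and of the 21 codons that differed 3 encode another amino acid. Rpl10l and Rpl10 differed at 98 of 645 bases, an identity of 84.8%, and of the 96 codons that differed 3 encode another amino acid. Both pairs thus encode nearly the same protein in different letters. For each gene 1 transcript was compared, with the longest complete coding sequence, and other annotated transcripts were not. The longest stretch these transcripts share was 38 bases for Rpl39l with Rpl39 and 23 for Rpl10l with Rpl10. Both are shorter than the reads of 150 bases named in the design text. Rpl22l1 and Rpl22 were less alike, with 70.2% identity over 369 aligned coding bases and a longest shared stretch of 26 bases. How the authors' counting treated reads with several alignments is not given in the sources used here, and processed pseudogenes are a further place where reads of Rpl10, Rpl39 and Rpl22 could be counted. Rows named as pseudogenes of Rpl10 held 127 counts over all libraries, against 857 for Rpl10 itself, and those of Rpl39 and Rpl22 held 1 and 4. Only rows named after the parent gene were looked up, so copies under other names are not in these counts.

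The 5 heat libraries held 60623568 to 102086073 counts each, and the 5 control libraries held 92311183 to 117723075. Of the 10 libraries, 42 °C replicate 2 was the shallowest and had 16.2% of its counts on TE, against 4.62% to 9.07% elsewhere. All 10 listed markers of round spermatids were detected, with a summed level of 1087 to 1638 CPM (counts scaled to library size with TMM factors) at 42 °C and 790 to 1493 CPM at 33 °C. RNA of the genes listed for elongating spermatids (9 markers, 1831 to 6387 CPM over all libraries) and spermatocytes (8 markers, 239 to 397 CPM) was also detected. Which cells that RNA came from was not tested, so it does not show that elongating spermatids were present. Summed somatic markers stayed at or under 23.7 CPM per cell type (Vwf, counted for endothelium, gave most of the highest). In such bulk libraries, fewer cells of a type and less RNA per cell cannot be told apart.

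By the deposited counts, Rpl10l and Rpl39l were among the ribosomal protein mRNAs of highest level in these spermatids, and their X-linked counterparts were close to absent. Since the treatment of reads with several alignments is not given, reads of ribosomal protein genes with processed copies could be missing from these levels, ranks and ratios. To compare genes, levels were divided by the kilobases of all annotated exons. Rpl39l averaged 174 ± 35.3 CPM per kb in heat libraries and 187 ± 25.6 in control libraries (SD, n = 5 each), and Rpl39 had 0.140 ± 0.0256 and 0.0688 ± 0.0462 CPM per kb. Rpl10l had 144 ± 28.3 CPM per kb at 42 °C and 158 ± 17.5 at 33 °C, and Rpl10 had 0.480 ± 0.0376 and 0.414 ± 0.0857 CPM per kb. Rpl22l1 and Rpl22 lay between these extremes, with 10.9 ± 1.41 and 11.5 ± 1.92 CPM per kb for Rpl22l1 and with 2.28 ± 0.461 and 2.17 ± 0.204 for Rpl22, at 42 °C and at 33 °C in that order. From high to low the order was thus Rpl39l, Rpl10l, Rpl22l1, Rpl22, Rpl10 and Rpl39. Rpl39l and Rpl10l overlapped within 1 SD of their means in both groups, and the other neighbours in this order did not.

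**Figure D1:**
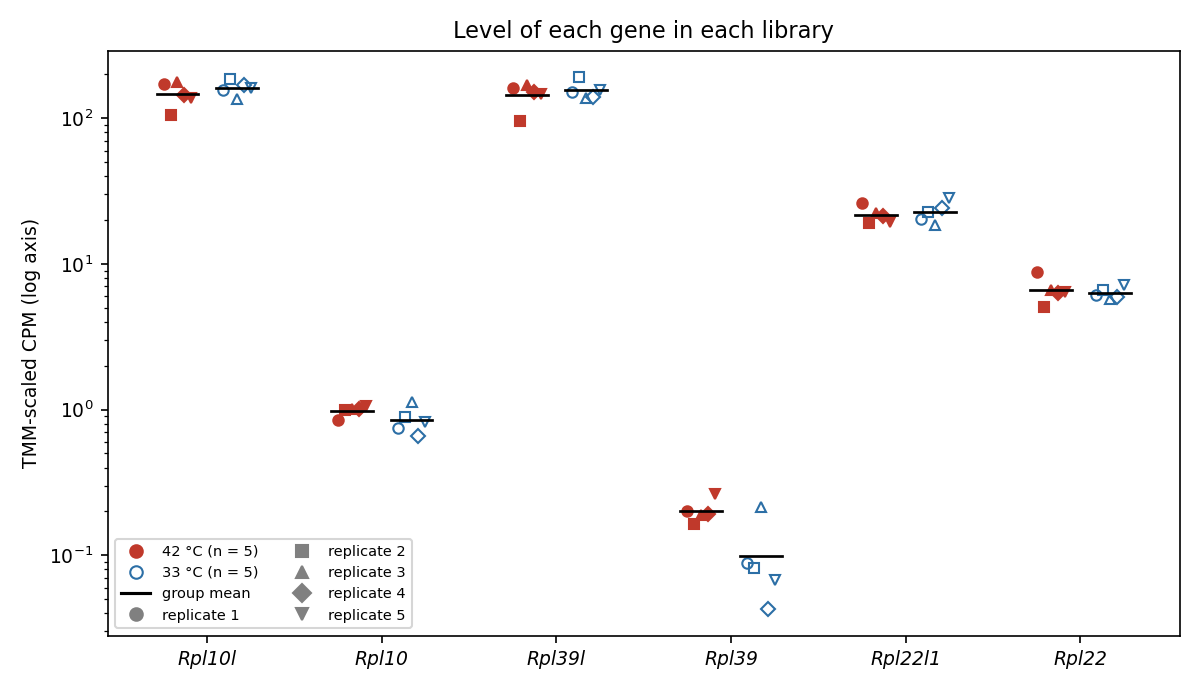
Level of each gene in TMM-scaled CPM on a log axis, not divided by length, with 1 point per library, filled for 42 °C (left) and open for 33 °C (right), a marker shape per replicate and a line at the group mean. Rpl10l and Rpl39l sit between 95.2 and 191 CPM in all 10 libraries, Rpl10 between 0.662 and 1.13 CPM and Rpl39 between 0.0427 and 0.262 CPM.

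Set against the 80 listed genes of cytosolic ribosomal proteins, Rpl39l ranked 4 and Rpl10l 5 of 83 per kb, where the 83 are these 80 and the 3 paralogs. The median of the 80 was 27.5 CPM per kb and the highest was Rplp0, a stalk protein, with 205 CPM per kb. At the other end, ranks 80 to 83 were held by Rpl10, Rpl39, Rps4x (0.102 CPM per kb) and Rpl36a (0.0319 CPM per kb), which are the 4 X-linked genes of the list. The 76 autosomal genes ran from 2.22 to 205 CPM per kb, and the lowest of them was Rpl22, at rank 79. Rpl22l1 was at rank 69. With the length of the longest coding transcript in place of all exons, the ranks were 7 for Rpl39l, 13 for Rpl10l and 56 for Rpl22l1, and ranks 79 to 83 held the same genes.

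**Figure D2:**
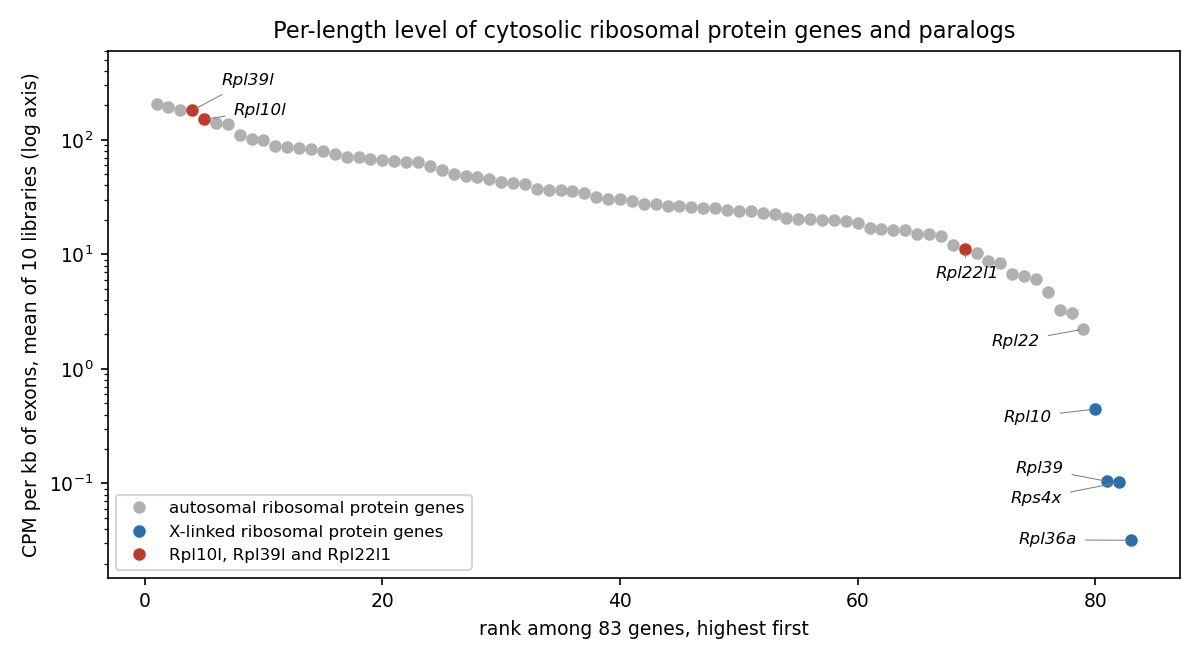
Rank (x axis, highest first) and level (y axis, log scale, CPM per kb of exons, mean of 10 libraries) of 80 cytosolic ribosomal protein genes and of Rpl10l, Rpl39l and Rpl22l1. The 4 X-linked genes are at ranks 80 to 83, and Rpl22 is at rank 79 with 2.22 CPM per kb.

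Each of the 3 paralogs was above its parent gene per kb in 10 of 10 libraries. For Rpl10l the ratio to Rpl10 over all libraries was 342 per kb, and it ran from 213 to 513 over single libraries. For Rpl39l the ratio to Rpl39 was 1759, from 965 to 5671, where the spread over libraries rests on 4 to 25 counts of Rpl39 per library. For Rpl22l1 the ratio to Rpl22 was 5.01, from 4.34 to 5.97. These ratios depend on the length used, and with the longest coding transcript they were 143, 775 and 12.7. As a share of the counts of its pair, Rpl10 took 0.933% (exact binomial 95% interval 0.723 to 1.18) in 42 °C replicate 2, its highest, and 0.390% (0.299 to 0.4995) in 33 °C replicate 4, its lowest. Rpl39 was highest with 0.178% (0.116 to 0.263) in 42 °C replicate 5, and lowest with 0.0304% (0.00829 to 0.0779) in 33 °C replicate 4. The groups overlapped in these shares. The control library 33 °C replicate 3 had 0.821% (0.676 to 0.988) for Rpl10 and 0.154% (0.0956 to 0.236) for Rpl39, above some heat libraries in each. Rpl22 took at most 25.2% (23.8 to 26.7), in 42 °C replicate 1, and at least 19.7% (18.2 to 21.2), in 33 °C replicate 4. Intervals of shares cover counting error only.

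The other X-linked ribosomal protein genes showed the same order. Rpl36al, an autosomal paralog of Rpl36a, had 442 times the level of Rpl36a per kb, with 13.6 CPM per kb over all libraries, and 137 times with the longest coding transcript. That ratio rests on 48 counts of Rpl36a, and rows named as its pseudogenes held 454. Rps4l, annotated as a transcribed processed pseudogene, had 862 times the level of Rps4x, with 89.9 CPM per kb. Both were above their parent in 10 of 10 libraries. Paralogs of autosomal ribosomal protein genes other than Rpl22 were below their parents in all 10 libraries: the ratio per kb was 0.00213 for Rpl3l to Rpl3, 0.127 for Rpl7l1 to Rpl7 and 0.296 for Rps27l to Rps27. Among 6 autosomal copies of X-linked genes of other functions, the ratio was 2333 for Pdha2 to Pdha1 and 261 for Pgk2 to Pgk1, which encode a subunit of pyruvate dehydrogenase and a glycolytic kinase, 135 for the centrin Cetn1 to Cetn2, 44.0 for the RNA-binding Rbmxl2 to Rbmx, 5.29 for Utp14b to Utp14a, which act in ribosome assembly, and 2.27 for Cstf2t to Cstf2, which act in mRNA 3′ end cleavage. Of the 10 pairs with an X-linked parent, 9 had the autosomal copy above it in all libraries, and Cstf2t was above Cstf2 in 9 of 10, by the length of all exons. With the longest coding transcript the ratio was 1.11 for Cstf2t to Cstf2, 3.34 for Utp14b to Utp14a, 31.6 for Rbmxl2 to Rbmx, 117 for Cetn1 to Cetn2, 212 for Pgk2 to Pgk1 and 1779 for Pdha2 to Pdha1. Before division by length, Cstf2t had fewer counts than Cstf2 in 4 of 10 libraries. The difference between pairs was not tested.

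None of the 6 genes passed the test between 42 °C and 33 °C in edgeR's quasi-likelihood test (adjusted p of 0.05 over 26025 features, where 0.0922% were called, 0.0884% higher and 0.00384% lower). DESeq2 (256 higher and 31 lower over all genes) and limma voom (124 and 29) also called 0 of 6. At an unadjusted p under 0.05 the count was 1 of 6, Rpl39, where 11.5% of all features passed, 8.56% higher and 2.94% lower. The CPM of the groups overlapped for each of the 6, and 2.00% of all features had groups that did not overlap, 1.32% higher and 0.680% lower at 42 °C.

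Rpl10l had 171, 106, 178, 143 and 137 CPM in 42 °C replicates 1 to 5, against 157, 185, 136, 169 and 162 CPM in 33 °C replicates 1 to 5. The groups overlapped, and 42 °C replicate 2 was the lowest of all. For Rpl10l edgeR gave a log2 fold change of -0.14 with an SE of 0.15 (adjusted p = 0.671), and the 95% interval of the fold was 0.729 to 1.13. The value was -0.013 without 42 °C replicate 2, -0.043 without 33 °C replicate 2, -0.015 with limma voom and -0.22 without 42 °C replicate 3. Rpl39l had 162, 95.2, 170.3, 151 and 146 CPM at 42 °C, against 152, 191, 138, 140.3 and 157 CPM at 33 °C. Again the libraries of both groups were interleaved except for 42 °C replicate 2, which lay below the rest, and 33 °C replicate 2, which lay above. For Rpl39l edgeR gave -0.10 on the log2 scale with an SE of 0.16 (adjusted p = 0.772) and a fold between 0.736 and 1.18. The value was 0.048 without 42 °C replicate 2, 0.025 without 33 °C replicate 2 and 0.025 with limma voom. A change of either testis paralog by the factor of 1.5 in either direction lies outside these intervals.

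Rpl10, the X-linked gene of the pair, had 0.853, 0.993, 1.01, 1.01 and 1.06 CPM in 42 °C replicates 1 to 5, against 0.750, 0.887, 1.13, 0.662 and 0.823 CPM in 33 °C replicates 1 to 5. The groups overlapped, with 33 °C replicate 3 the highest of all 10 and 33 °C replicate 4 the lowest. For Rpl10 edgeR gave 0.21 on the log2 scale with an SE of 0.19 (adjusted p = 0.627), and a fold between 0.866 and 1.55. Rpl39 had 20, 11, 19, 17 and 25 counts (0.201, 0.163, 0.188, 0.190 and 0.262 CPM) at 42 °C, against 8, 9, 21, 4 and 6 counts (0.0883, 0.0815, 0.213, 0.0427 and 0.0676 CPM) at 33 °C. All libraries at 42 °C were above all at 33 °C except 33 °C replicate 3. The group sums were 92 counts at 42 °C (exact Poisson 95% interval 74.2 to 113, counting error only) and 48 counts at 33 °C (35.4 to 63.6). The log2 fold change of Rpl39 was 1.02 (SE 0.39, 95% interval 0.17 to 1.86), with an unadjusted edgeR p of 0.0227 and an edgeR adjusted p = 0.394, from 0.0642 (limma voom) to 0.799 over all alternatives. Snora69, a small nucleolar RNA gene inside Rpl39 on the same strand, had 11 counts at 42 °C and 1 at 33 °C, and the part of such reads in the value of Rpl39 was not tested.

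Rpl39 and Rpl10 were highest in libraries that were also high in the markers listed for some other cell types. Within the heat group 42 °C replicate 5 had the highest Rpl39 and Rpl10, and within the control group 33 °C replicate 3 did. The lead in the heat group was small. Rpl10 had 1.06 CPM (101 counts) in 42 °C replicate 5 against 1.01 CPM (102 counts) in 42 °C replicate 3. Rpl39 had 25 counts in 42 °C replicate 5 against 20 in 42 °C replicate 1. These counts do not resolve the order within the heat group. The same libraries were highest within their groups in the summed markers of Leydig cells, the steroid-making cells between the tubules, with 7.10 CPM in 42 °C replicate 5 (2.67 to 5.25 in the other libraries of the group) and 18.2 CPM in 33 °C replicate 3 (2.99 to 4.31 in the others). They were also highest in peritubular and stromal markers (8.16 and 11.0 CPM), Sertoli markers (7.73 and 6.60 CPM) and elongating spermatid markers (6387 and 4377 CPM). All 6 Leydig, 5 peritubular and stromal, 7 Sertoli and 9 elongating spermatid markers had at least 1 count somewhere, so that 0 of them were at 0 throughout. Leydig markers ran from 2.67 to 7.10 CPM in heat libraries and from 2.99 to 18.2 CPM in control libraries, peritubular and stromal markers from 4.34 to 8.16 CPM against 3.27 to 11.0 CPM. Sertoli markers ran from 4.61 to 7.73 CPM in heat libraries against 3.69 to 6.60 CPM in control libraries, and elongating spermatid markers from 2279 to 6387 CPM against 1831 to 4377 CPM. Other lists did not have this order in both groups. Leukocyte markers were at 6.99 CPM in 42 °C replicate 5 (6.58 to 9.00 in the group) and 8.19 CPM in 33 °C replicate 3 (7.15 to 10.9). Endothelial markers were highest in 42 °C replicate 4 and 33 °C replicate 5. Spermatogonial markers were lowest of the heat group in 42 °C replicate 5 (18.2 CPM) but highest of the control group in 33 °C replicate 3 (20.2 CPM). Between the groups, the log2 fold change was below 0 for 6 of 6 Leydig markers (median -0.81) and above 0 for 9 of 9 elongating spermatid markers (median 0.34), with 0 of them called by edgeR. The part of these cells in the level of Rpl39 or Rpl10 was not tested.

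Rpl22l1 had 26.0, 19.1, 22.5, 21.4 and 19.4 CPM in 42 °C replicates 1 to 5, against 20.3, 22.7, 18.5, 24.3 and 28.5 CPM in 33 °C replicates 1 to 5. Rpl22 had 8.77, 5.04, 6.63, 6.31 and 6.46 CPM at 42 °C, against 6.08, 6.63, 5.70, 5.95 and 7.18 CPM at 33 °C. Both genes overlapped fully between the groups. For Rpl22l1 edgeR gave -0.08 on the log2 scale with an SE of 0.14 (adjusted p = 0.810) and a fold between 0.766 and 1.17. For Rpl22 it gave 0.07 with an SE of 0.16 (adjusted p = 0.835) and a fold between 0.830 and 1.34. The direction of Rpl22l1 turned with limma voom (0.054) and without 33 °C replicate 5 (0.054), and that of Rpl22 without 42 °C replicate 1 (-0.047). Gm33051, on the opposite strand across the end of Rpl22l1, had 9 counts at 42 °C and 13 at 33 °C.

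**Figure D3:**
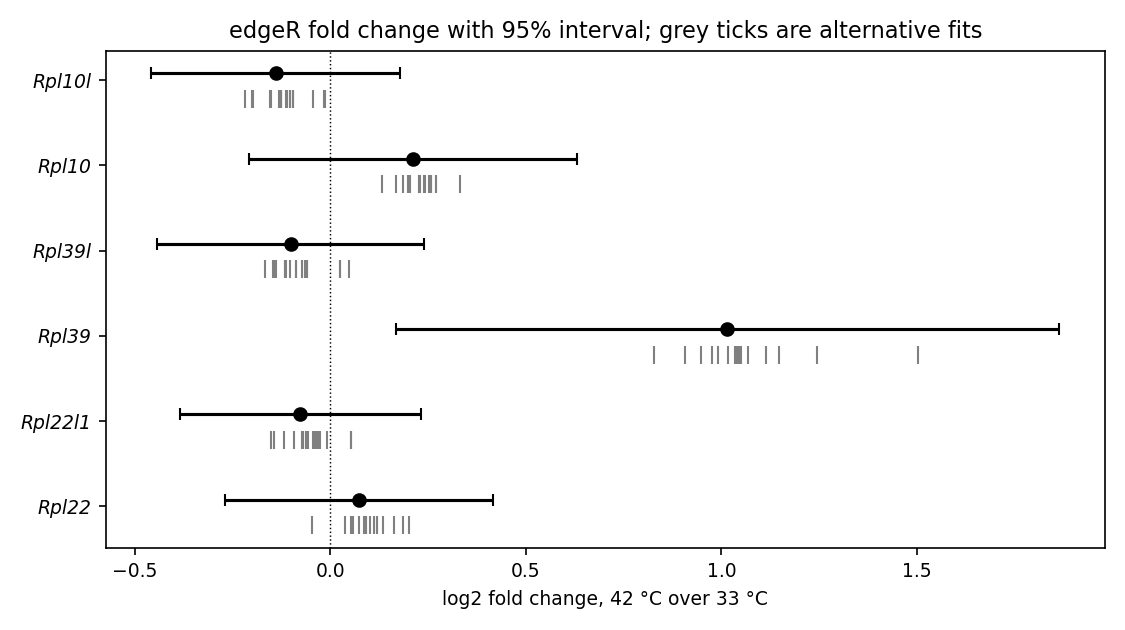
Log2 fold change of 42 °C over 33 °C (x axis) for each of the 6 genes from edgeR, with its 95% interval (black), and the values under the alternative scalings, filters, tools and left-out libraries (grey ticks). The interval of Rpl39 runs from 0.17 to 1.86, and those of the other 5 genes include 0.

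Whether the genes of a pair moved against each other was asked from the log2 ratio of their counts within each library, in which depth and scaling cancel. On the log2 scale the ratio of Rpl39l to Rpl39 was 9.44 ± 0.31 in heat libraries and 10.73 ± 0.85 in control libraries (SD, n = 5 each). The difference was -1.29 (exact two-sided permutation p = 0.0317, and 0.218 adjusted over the 11 pairs tested), and the ratio was lower in each library at 42 °C than in 4 of the 5 at 33 °C. With any library other than 33 °C replicate 3 left out, the exact permutation p ran from 0.0317 to 0.0476 (0.131 to 0.437 adjusted). Without 33 °C replicate 3, whose ratio of 9.30 lay within the range at 42 °C, the groups did not overlap. The difference was then -1.64 (exact permutation p = 0.00794, the smallest that such a comparison of 9 libraries can give, and 0.0873 adjusted). Leaving out the only library at 33 °C that overlapped fixes this separation, so that p is no support for a difference. For Rpl10l to Rpl10 the ratio was 7.19 ± 0.36 at 42 °C and 7.58 ± 0.40 at 33 °C, a difference of -0.39 (exact permutation p = 0.151, adjusted 0.332). For Rpl22l1 to Rpl22 it was 1.72 ± 0.15 and 1.85 ± 0.15, a difference of -0.13 (exact permutation p = 0.214, adjusted 0.393). No pair passed after adjustment, and with 11 pairs a single pair at the smallest possible p of 0.00794 would also have had an adjusted value of 0.0873.

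**Figure D4:**
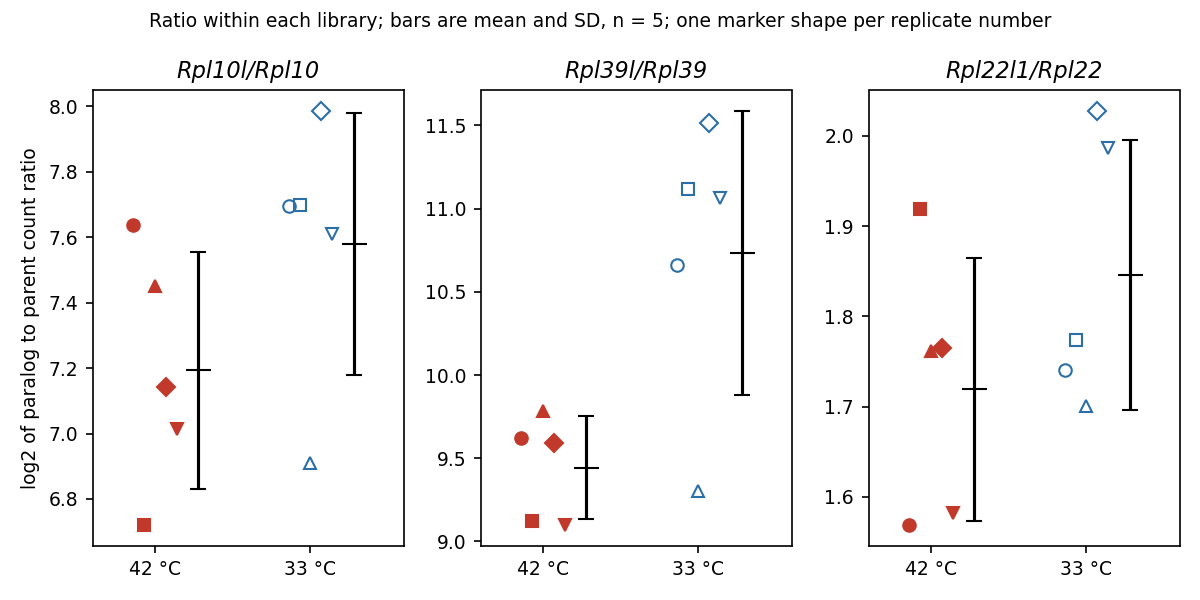
Log2 ratio of paralog to parent counts (y axis, its own scale in each panel) per library at 42 °C (filled, left) and 33 °C (open, right), with mean and SD (n = 5 each). For Rpl39l to Rpl39, 33 °C replicate 3 lies at 9.30 among the libraries at 42 °C, and the other 4 at 33 °C lie at 10.66 or above.

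The ratio had a lower mean at 42 °C in 13 of the 14 pairs looked at, and in all 11 that could be tested, none of them past the threshold. Beside the 3 pairs above, the difference was -0.66 for Pgk2 to Pgk1 (exact permutation p = 0.0476, adjusted 0.218), -0.57 for Utp14b to Utp14a (exact p = 0.0635, adjusted 0.218) and -0.81 for Cstf2t to Cstf2 (exact p = 0.0794, adjusted 0.218). It was -0.78 for Rps4l to Rps4x, -0.22 for Rpl7l1 to Rpl7, -0.18 for Rbmxl2 to Rbmx, -0.17 for Cetn1 to Cetn2 and -0.09 for Rps27l to Rps27 (exact permutation p from 0.302 to 0.429, adjusted 0.398 to 0.429). With 1 library left out these ran from -1.45 to -0.44 for Rps4l, from -0.36 to -0.10 for Rpl7l1, from -0.27 to -0.048 for Rbmxl2, from -0.26 to -0.031 for Cetn1 and from -0.15 to -0.042 for Rps27l. The pairs share their libraries, so these directions are not independent of each other. The share of lower ratios among other pairs of a high and a low gene was not computed, so 13 of 14 is not shown to be particular to paralogs. Over all features the median log2 fold change was 0.091 with no filter on low counts and -0.020 at a mean of at least 1 CPM. The part of low-count parents in the direction of the ratios was not tested. The one pair with a higher mean ratio at 42 °C was Pdha2 to Pdha1 (0.51), which was not tested because Pdha1 did not pass the filter on low counts.

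Of the 80 genes of cytosolic ribosomal proteins, 79 were tested, and edgeR called 0 in either direction, where 0.0922% of all features were called. With so small a share, 0 of 79 says little about these genes. At an unadjusted p under 0.05 it had 0 lower and 1 higher, which was Rpl39, where 2.94% of all features were lower and 8.56% higher. DESeq2, which called 256 genes higher and 31 lower over all genes, and limma voom, with 124 and 29, called 0 of the 79 as well. The median log2 fold change of the 79 was -0.07, with 11 above 0 and 68 below, against a median of -0.01 and 48.9% above 0 over all features. The split depended on the scaling, with 17 above 0 with DESeq2 size factors, 25 with factors from genes alone and 27 with library totals. With limma voom, another tool with its own weights, 69 were above 0. The median was above 0 with limma voom (0.072), without 42 °C replicate 2 (0.053) and without 33 °C replicate 2 (0.016). After Rpl39 the member of smallest p was Rpl30, which averaged 72.7 ± 15.05 CPM in heat libraries and 92.1 ± 14.7 CPM in control libraries (log2 -0.34, SE 0.16, edgeR adjusted p = 0.450). Of the 10 factors that mature and export the large subunit, into which RPL10 is built last, 0 were called higher and 0 lower by edgeR, and 0 at an unadjusted p under 0.05. DESeq2 and limma voom again called 0, and at the shares over all features given above, 0 of 10 says little about these factors. Their median was -0.16, with 8 of 10 below 0. It was -0.060 with 6 of 10 below 0 in limma voom, -0.078 without 33 °C replicate 2 and -0.087 without 42 °C replicate 2. Rsl24d1 had a log2 fold change of -0.31 (SE 0.17) and Lsg1, a GTPase that releases the export adaptor, of -0.35 (SE 0.19), both with an edgeR adjusted p of 0.477.

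Across the 10 libraries Rpl10l and Rpl39l had profiles close to each other. The root mean square difference of their log2 CPM, each centred on its own mean, was 0.10, the smallest of the 15 pairs among the 6 genes, and 0.15 for Rpl22l1 with Rpl22. It was 0.39 for Rpl10l with Rpl10 and 0.86 for Rpl39l with Rpl39. Among 7311 genes with a mean of at least 10 CPM, the most similar to Rpl10l were Slc22a16 (0.035), a carnitine transporter of the testis, Mocs3 (0.044) and Ndufb5 (0.045), against a median of 0.22 over all of them. For Rpl39l they were Cops5 (0.054), Slc25a33 (0.055) and Igbp1b (0.057), and for Rpl22l1 Ccdc146 (0.067), Cfdp1 (0.068) and Ift81 (0.072). Those closest to Rpl22 were Txndc9 (0.067) and the ribosomal protein genes Rpl17 (0.083) and Rpl27a (0.093). Rpl10 was closest to Tex30 (0.12), Gtpbp2 (0.14) and Ube2g2 (0.14). For Rpl39 the closest were Smim23 at 0.43, Eya4 at 0.46 and Itpr3 at 0.48, against a median of 0.87 over the same 7311 genes. The profile of Rpl39 rests on 4 to 25 counts per library. Counting error is thus part of these distances and of the 0.86 for Rpl39l with Rpl39. All genes share the depth and composition of the same libraries, so likeness is given as a description.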

How the data were processed

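Round spermatid RNA from 10 mice was analysed. The authors deposited 1 table of raw counts per gene and TE subfamily, with no normalization. Per the submitters' processing notes, DRAGEN, cutadapt and Trim Galore were used, with mm10 and GRCm38 as builds. The name of the counting tool, with its strand setting, is not given in the sources used here. Groups were taken from the sample titles.

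Counts were tested with edgeR 4.0.16 (quasi-likelihood, R 4.3.3), modelling temperature alone. Rows were first filtered with filterByExpr (minimum count 10, minimum total 15, smallest group of 5). TMM factors were then taken over all rows kept, genes and TE subfamilies alike. The filter left 26025 features, with Benjamini-Hochberg adjustment over all of them. The SE is the absolute log2 fold change divided by the square root of F. The code was tested on simulated data. DESeq2 1.42.0 and limma 3.58.1 (voom with quality weights), other scalings and filters, a replicate block and each library left out were alternatives. Pair ratios used a pseudocount of 0.5 counts and an exact permutation test. Profiles used the same pseudocount. Lengths came from GENCODE M21, where 99.4% of 55141 shared identifiers had equal positions. No 2 libraries of a group were alike within sampling noise (chi-square per degree of freedom of 13.9 or more).

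Named genes were the 6 members, all pair genes, the X-linked ribosomal protein genes, the 2 members of smallest p per list and the 3 closest profiles per member. Members and lists were chosen with earlier results of these data known. Same-numbered libraries did not deviate together, so the numbers were not treated as pairs.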

Additional observations from a re-analysis of the deposited data

Results flagged for a closer look

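The level of Rpl39 in 33 °C replicate 3 (0.213 CPM) lay far above the other 4 libraries at 33 °C (0.0427 to 0.0883 CPM), with a gap that was 0.733 of the range of the group, past Dixon's critical value of 0.710 for 5 samples. It was the 1 flag in 18 groups of 5 values checked for the 6 genes and 3 pair ratios, and chance flags about 1 in 20 groups.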

How the results depend on the processing

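No member gene, cytosolic ribosomal protein gene or large-subunit maturation factor was called in either direction under any of the 18 alternative fits. Rpl10 and Rpl39 stayed above 0 in the 17 alternatives that could give a value (they fall under a mean of 1 CPM) and Rpl10l stayed below 0 in 18. Limma voom turned Rpl39l to 0.025 and Rpl22l1 to 0.054. With 1 library left out, Rpl39l ran from -0.168 (42 °C replicate 3) to 0.048 (42 °C replicate 2), with 0.025 for 33 °C replicate 2, Rpl22 from -0.047 (42 °C replicate 1) to 0.187 (42 °C replicate 2) and Rpl22l1 from -0.152 (42 °C replicate 1) to 0.054 (33 °C replicate 5). With 1 library left out, the ratio difference was -0.55 to -0.27 for Rpl10l to Rpl10, -1.64 to -1.09 for Rpl39l to Rpl39 and -0.18 to -0.08 for Rpl22l1 to Rpl22. Adding pseudogene counts to Rpl10 gave -0.29. Per-length ratios with the longest coding transcript were 143, 775 and 12.7. That length equals all exons for Rpl10l and is shorter for the other 5 genes.

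Over all genes, edgeR called 23 higher and 1 lower. The counts were 15 higher with library totals, 256 and 31 with DESeq2, 124 and 29 with limma voom, 73 and 3 with no filter, 2 and 0 with a mean of at least 1 CPM, and 10 to 21 higher and 0 to 2 lower with 1 library left out. With the replicate block they were 4 and 0, and Rpl39 had a log2 fold change of 1.15 (edgeR adjusted p = 0.734). Deviations of same-numbered libraries correlated at -0.56 to -0.10, and in 0 of 5 did a library correlate best with its own number. In the sign-flip test with the replicate block each ratio difference is the same by construction, so only its p can change. For Rpl39l to Rpl39 (-1.29) the exact sign-flip p was 0.125, where 0.0625 is the smallest possible. Depth limits Rpl39, with 4 to 25 counts per library, far more than the other members. The cause of these changes was not tested.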
